A study of Caenorhabditis elegans with 6 samples.

Results

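The irg (infection response gene) and dod (downstream of DAF-16) genes described here are irg-1, irg-2, irg-3, irg-4, irg-5, irg-6, dod-17, dod-22 and dod-24. They were picked by name, with earlier results of these data known. Their probes were found by matching the sequence names on the arrays to symbols in RefSeq's annotation (WBcel235). Of the 9 genes, 8 had a probe, 1 each, among 18999 features tested. For irg-6 (C32H11.1) no probe was matched, and it was not analysed here. The other sequence names are C07G3.2 for irg-1, C49G7.5 for irg-2, F53E10.4 for irg-3 and F35E12.5 for irg-5, all on chromosome V, and F08G5.6 for irg-4, K10D11.1 for dod-17, F55G11.5 for dod-22 and C32H11.12 for dod-24, all on chromosome IV.

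Nematodes of the wild-type strain N2 were raised from eggs on agar dishes at 24 °C with E. coli OP50 as food, with 0.5 mg/L chlorpyrifos (CPF) plus 1 mg/L diazinon (DZN), organophosphates that inhibit acetylcholinesterase, or with the solvent acetone alone. Whole animals from several dishes made up 1 sample, and the age at harvest is not settled, since the labels have 72 h and stage L3/L4 but the methods late L3 after less time. RNA of CPF+DZN animals was hybridised against RNA of controls on 6 arrays of 2 colours, with the mixture in Cy5 on 3 and in Cy3 on 3. An array is called here by the dye of its mixture RNA and its replicate number, such as Cy5 replicate 1. Slide numbers in the scanner headers fell into an earlier series (Cy5 replicates 1 and 2) and a later one (the other 4 arrays), and the mixture RNA on Cy5 replicate 2 and on Cy3 replicate 1 had 1 extract number in common. Between 44.1 and 54.9% of the mixture spots and between 47.9 and 58.1% of the control spots of an array were well above background, and Cy5 replicate 3 was least like the other arrays (mean Pearson r of its ratios with theirs 0.276 across features).

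In C. elegans, infected intestinal cells switch on secreted effector genes. Proteins with a CUB-like region, a domain found in many extracellular proteins, are a large family among these effectors, and irg-4, irg-5, irg-6, dod-17, dod-22 and dod-24 encode members of it. irg-4, irg-5 and irg-6 are used as readouts of the PMK-1 p38 MAPK pathway, in which the kinases NSY-1, SEK-1 and PMK-1 act on the transcription factor ATF-7. irg-1 and irg-2 are known as targets of the bZIP factor ZIP-2, which responds when Pseudomonas aeruginosa blocks translation. The dod genes were found as genes whose transcript level depends on DAF-16, the FOXO factor held back by insulin signalling.

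The main question was which of these genes changed with CPF+DZN. irg-4 rose 8.78-fold and irg-5 10.1-fold, and irg-1 fell in a call that 12 of 23 alternatives ended, whereas irg-2, irg-3, dod-17, dod-22 and dod-24 did not pass the test. Thus 2 of 8 measured genes were called higher and 1 lower at an adjusted p of 0.05 in limma. Over all features 6.74% were called higher and 7.13% lower, 13.9% in all. The log2 ratio of mixture over control had a median of 0.02 over the 8 genes and of 0.000133 over all features. irg-4 and dod-24 were above 0 on all 6 arrays, as were 8.76% of all features, and none of the 8 genes was below 0 on all 6, as were 8.62%.

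**Figure D1:**
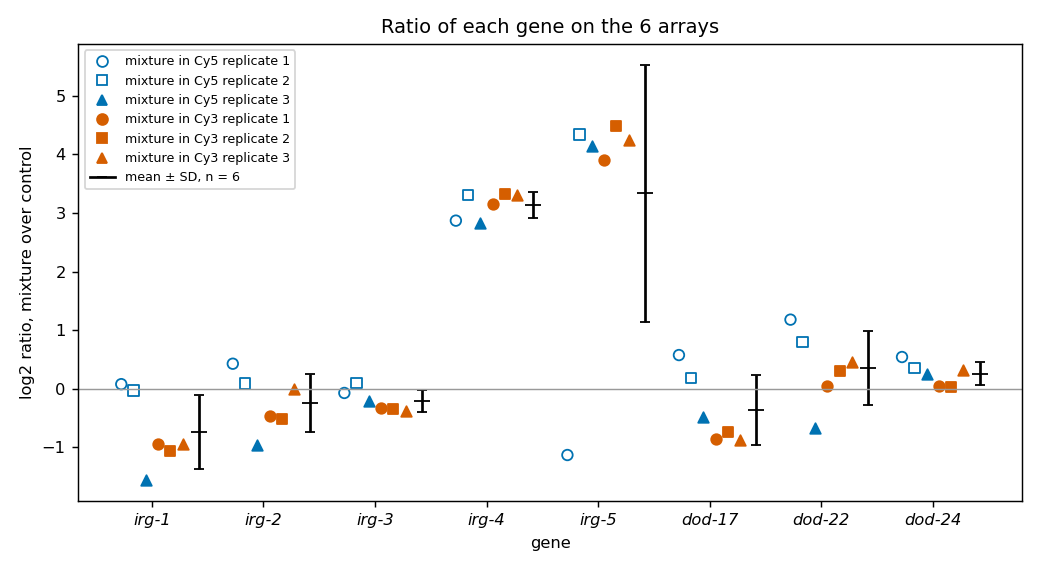
Log2 ratio of mixture over control (y axis) of the 8 measured genes (x axis) on each of the 6 arrays; blue, mixture in Cy5, orange, mixture in Cy3, open symbols, earlier slide series, and black bars, mean ± SD of 6 arrays. The irg-4 ratios lie between 2.84 and 3.33, and irg-5 has 5 ratios between 3.90 and 4.49 and 1 at -1.13.

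irg-4 had the smallest p of all features and the 11th highest ratio. Its log2 ratios were 2.87, 3.31 and 2.84 on the arrays with the mixture in Cy5 and 3.15, 3.33 and 3.31 on those with the mixture in Cy3. Every array gave a ratio of 7.15 to 10.1-fold. The mean was 3.13 ± 0.23 (SD, n = 6), a ratio of 8.78-fold, with a 95% confidence interval of 2.93 to 3.34 and an adjusted p of 1.05e-05.

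The signals behind it were far above background. The foreground medians of the mixture channel were 9562, 7040 and 10131 with the mixture in Cy5 and 4523, 2845 and 8017 with it in Cy3, and those of the control channel on the same arrays were 1647, 883, 1544, 700, 519 and 1280. After normalization the mixture spanned 11.9 to 13.4 on the log2 scale and the control 8.56 to 10.6, so the mixture and the control did not overlap. Of all features 1.05% did not overlap, and 0.658% did so with the mixture higher. No pixel of the irg-4 spots was saturated on any array.

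irg-5 had the 9th highest ratio of all features, but 1 array stood apart. Its log2 ratios were -1.13, 4.34 and 4.15 with the mixture in Cy5 and 3.90, 4.49 and 4.25 with the mixture in Cy3. The mean over all 6 was 3.33 ± 2.20 (SD, n = 6), a ratio of 10.1-fold, with an interval of 1.82 to 4.85 and an adjusted p of 0.0188. Without Cy5 replicate 1 the mean of the other 5 arrays was 4.23 ± 0.22 (SD), a ratio of 18.7-fold, and the adjusted p was 5.93e-05. With the deviating array kept, leaving out any other array but Cy5 replicate 3 ended the call, with adjusted p from 0.0586 to 0.0803.

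In foreground medians the irg-5 mixture channel read 319 on Cy5 replicate 1 against 19690, 23011, 20740, 17068 and 35323 on the others. The control channel read 705 there against 1138, 1408, 1722, 1273 and 2818. Both channels were thus at their lowest on this array, and the mixture was the lower of the pair there alone. The spot was also uneven on it: the mean of its pixels was 5.43 times their median in the mixture channel and 3.38 times in the control channel, whereas on the other 5 arrays this quotient was 0.898 to 1.01 and 1.01 to 1.08. Of the features well above background in the mixture channel of that array, irg-5 itself included, 0.0107% were at least as uneven. In the control channel the share, counted in the same way, was 0.111%. The part of the uneven spot in the deviating ratio was not tested.

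On the same array irg-4 had a log2 ratio of 2.87. Among all features 7 had a log2 ratio above 3 on at least 5 arrays, 4 of them on all 6, and irg-5 was the 1 whose remaining ratio was below 0. Of these 7, cyp-35A4 is a neighbour of irg-2.

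**Figure D2:**
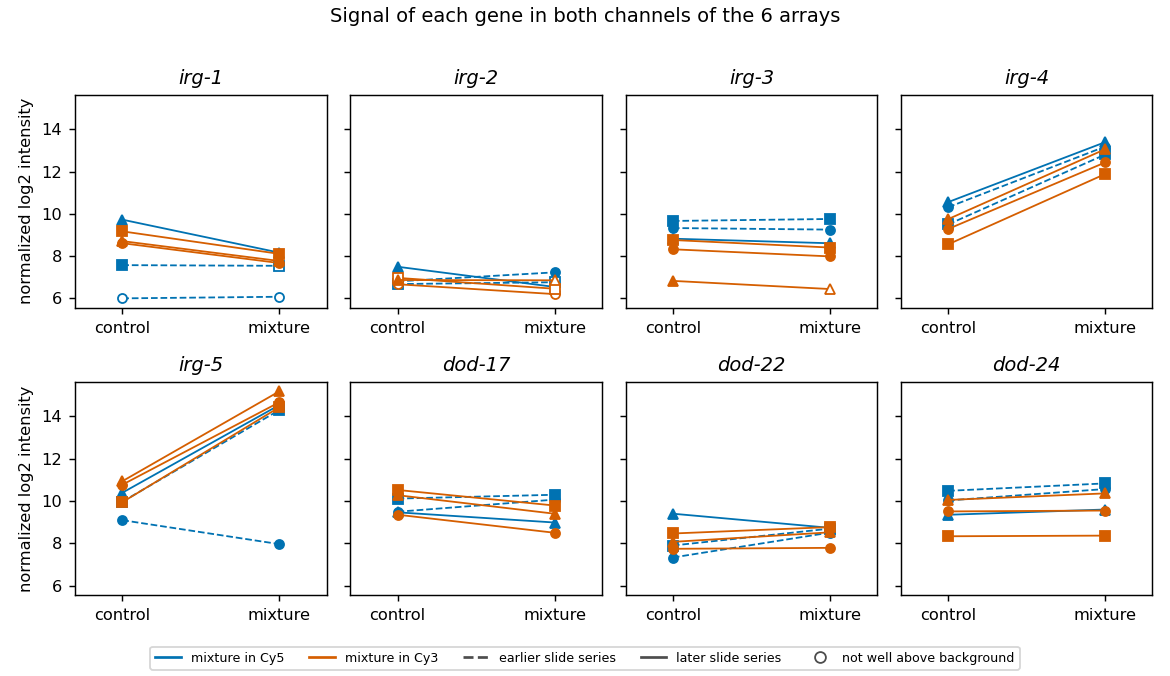
Normalized log2 intensity (y axis) of each gene in the control and mixture channel of the 6 arrays, 1 line per array; blue, mixture in Cy5, orange, mixture in Cy3, dashed lines, earlier slide series, open symbols, not well above background. All 6 irg-4 lines climb from at most 10.6 to at least 11.9, and 1 of 6 irg-5 lines goes down.

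irg-1, a ZIP-2 target, was called lower, just inside the threshold. Its log2 ratios were 0.08, -0.03 and -1.56 with the mixture in Cy5 and -0.94, -1.07 and -0.94 with the mixture in Cy3. The mean was -0.74 ± 0.64 (SD, n = 6), which is 1.67-fold lower, with an interval of -1.21 to -0.27 and an adjusted p of 0.0490. The ratios close to 0 were those of the earlier slide series, where the spot was dim: both channels were not well above background on replicate 1, with foreground medians of 182 and 163, and neither was the mixture channel on replicate 2, at 275 against 280 in the control. On the 4 arrays of the later series the foreground medians were 381, 265, 293 and 283 in the mixture. Those in the control were 1036, 497, 746 and 620, and the fitted ratio was -1.27. Leaving out any one array other than Cy5 replicate 3 ended the call, with adjusted p from 0.0566 to 0.145, and so did averaging the 2 arrays of the shared mixture extract (adjusted p = 0.0757), a replicate block (adjusted p = 0.0749) and a scan-day block (adjusted p = 0.0608).

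irg-2, the other ZIP-2 target, was close to background. Its mixture spots were well above background on 1 array and its control spots on 2, with foreground medians of 158 to 225 in the mixture and 184 to 287 in the control. The log2 ratio was -0.24 ± 0.50 (SD, n = 6, interval -0.64 to 0.16, adjusted p = 0.438) over the 6 arrays.

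irg-3, named as an infection response gene, had log2 ratios of -0.07, 0.09 and -0.22 with the mixture in Cy5 and -0.34, -0.36 and -0.39 with the mixture in Cy3. The mean was -0.21 ± 0.19 (SD, n = 6, interval -0.38 to -0.04), and the adjusted p of 0.101 missed the threshold. Its level varied more between arrays than between channels, from 6.45 to 9.76 in the mixture and from 6.83 to 9.67 in the control on the log2 scale. The mixture channel of Cy3 replicate 3 was not well above background.

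None of the 3 measured dod genes passed the test, and they differed in how much the arrays varied. dod-24 had log2 ratios of 0.54, 0.35, 0.25, 0.04, 0.03 and 0.31 in the same order of arrays, all above 0. Its mean of 0.25 ± 0.19 (SD, n = 6) had an interval of 0.07 to 0.44 and an adjusted p of 0.0765. It was called higher in the authors' value table (0.30, adjusted p = 0.00925), from foreground means (0.33, adjusted p = 0.0188) and without Cy5 replicate 3 (0.29, adjusted p = 0.0493), whereas median centring instead of loess gave -0.047 (adjusted p = 0.697).

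dod-17 had log2 ratios of 0.57, 0.18 and -0.48 with the mixture in Cy5 and -0.85, -0.74 and -0.88 with the mixture in Cy3. The foreground medians were 1082, 1225, 589, 379, 729 and 691 in the mixture and 975, 1286, 830, 760, 1791 and 1778 in the control, so the groups overlapped. The mean of -0.37 ± 0.61 (SD, n = 6, interval -0.67 to -0.06) had an adjusted p of 0.107. The 3 Cy3 arrays were closely grouped and lower than the 3 Cy5 arrays, with means of -0.82 and 0.09. The dye effect of dod-17 had an unadjusted p of 0.00850 and an adjusted p of 0.551, while 0.0211% of all features were called for a dye effect.

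dod-22 had log2 ratios of 1.18, 0.80 and -0.67 with the mixture in Cy5 and 0.04, 0.30 and 0.45 with the mixture in Cy3. The mean was 0.35 ± 0.64 (SD, n = 6, interval -0.15 to 0.86, adjusted p = 0.354). The only ratio below 0 came from Cy5 replicate 3, where the control foreground median was 804 against 271 to 491 on the other arrays. Without that array the ratio was 0.63 and was called (adjusted p = 0.00327).

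The slide series lined up with the ratios of several genes. In the earlier series irg-1, irg-2, dod-17 and dod-22 had mean log2 ratios of 0.02, 0.26, 0.38 and 0.99, and in the later series of -1.13, -0.49, -0.74 and 0.03. irg-4 had nearly the same mean in both, 3.09 and 3.16. Within the later series alone, in the fit with the dye term, dod-17 was -0.65 (adjusted p = 0.0204) and irg-2 was -0.64 (adjusted p = 0.0422), both past the threshold, and dod-22 was -0.20 (adjusted p = 0.452). The earlier series held 2 arrays of 1 orientation, so it gave no test. The later series held a single array with the mixture in Cy5, which the dye term fits exactly, so its spread is that of the 3 Cy3 arrays.

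Oocyte markers were lower on the arrays of the earlier slide series than on those of the later one. The median log2 ratio of 8 of them was -2.02 and -2.26 on the earlier arrays and -1.50 to -0.29 on the later ones. Cy5 replicate 3 was nearest to 0. For the vitellogenin (yolk) genes the series overlapped, with medians of -2.67 to -1.88 on the earlier arrays and -2.49 to -0.37 on the later ones. All 8 oocyte markers and all 6 vitellogenin (yolk) genes fell, with medians of -1.37 and -1.64, and 3 of 7 measured sperm markers fell. The summed signal, on a linear scale after normalization, was 6289 to 20299 in the mixture and 22208 to 36653 in the control for oocyte markers, and 35461 to 111986 and 103035 to 237319 for yolk genes. In the control, these 8 oocyte markers and 6 yolk genes were all well above background on every array. Whether such levels go with the larval stages in the labels and methods was not tested. Of 14 intestine markers 7 rose (50%, against 6.74% of all features) and none fell (against 7.13%). This list leaves out the 6 vitellogenin genes, all of which fell, so it does not stand for all intestinal transcripts. Their median was 0.25, with a summed signal of 100773 to 145062 in the mixture and 73229 to 109545 in the control. All 14 were well above background in both channels. The intestinal GATA factor elt-2, named here as the defining marker and outside the naming rule, was at 0.15 ± 0.21 on the log2 scale (SD, n = 6, adjusted p = 0.344). The intestinal cysteine protease gene cpr-1 was at 0.81 ± 0.33 (SD, n = 6, adjusted p = 0.00420). In whole animals more cells of a type and more RNA per cell cannot be told apart, and the part of these markers in the ratios of the irg and dod genes was not tested. The mean log2 ratios of the 14 intestine markers spanned 0.039 to 0.81. Of the irg and dod genes, dod-22 and dod-24 (0.35 and 0.25) lay within this span. irg-4 and irg-5 lay above it and the other measured genes below it.

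irg-6, dod-24, dod-22 and dod-17 lie in 1 run of 43 genes on chromosome IV, in the order of the RefSeq table, with sequence names of the clones K08D8, C32H11, F55G11 and K10D11. Of these genes 31 were measured, 8 were called higher (25.8%) and 1 lower (3.23%), against 6.74% and 7.13% over all features, and the median log2 ratio was 0.19. None of the 3 measured dod genes in the run was among the 8. The count of genes called higher was 4 without Cy3 replicate 2 and without Cy3 replicate 3, 5 without Cy5 replicate 2 and 11 without Cy5 replicate 3.

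**Figure D3:**
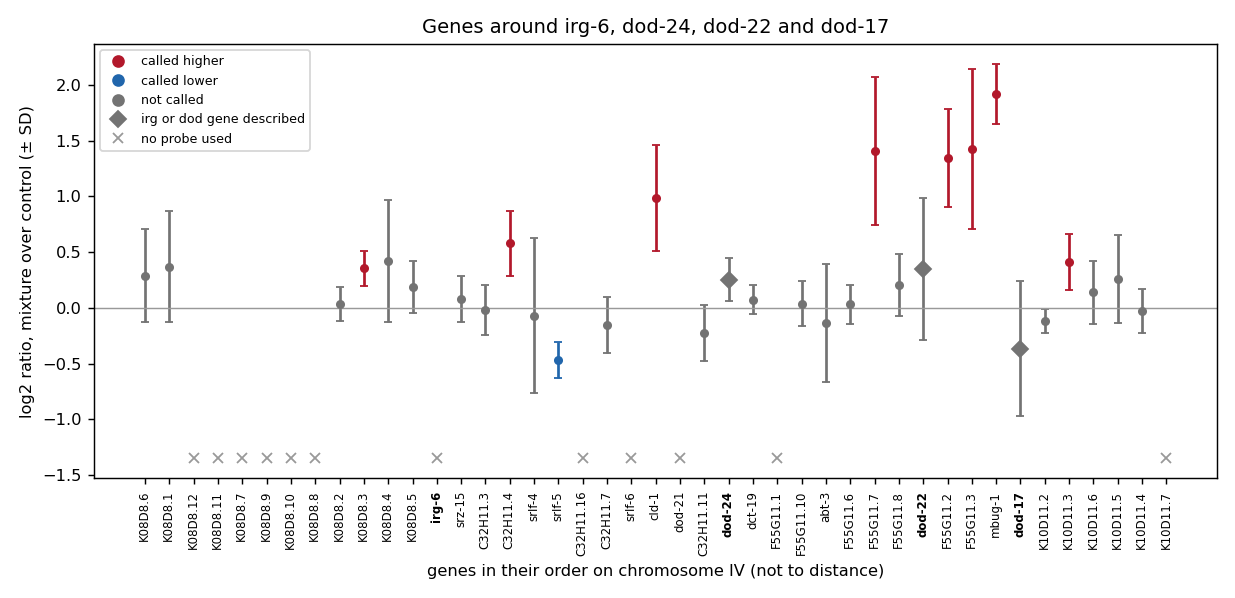
Log2 ratio of mixture over control with SD over 6 arrays (y axis) of 43 genes in their order on chromosome IV (x axis, not to distance); red, called higher, blue, called lower, grey, not called, diamonds, dod-24, dod-22 and dod-17, crosses, genes with no probe used. The 4 highest ratios, from 1.34 to 1.92, are those of the F55G11 genes on either side of dod-22.

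The highest ratios of the run were next to dod-22. The stretch F55G11.7, F55G11.8, dod-22, F55G11.2, F55G11.3 and mbug-1 (F55G11.4) was bounded after the values were seen. Of its 6 genes 4 were called higher, against 6.74% of all features, and the count was 4 or 5 whichever array was left out. Since the stretch was drawn around these genes, its count is no test. On the same clone F55G11.10, abt-3 and F55G11.6, also outside the naming rule, were at 0.04, -0.14 and 0.03 and were not called. None of them was well above background on any array. mbug-1, the direct neighbour of dod-17, had log2 ratios of 2.31, 2.01 and 2.08 with the mixture in Cy5 and 1.57, 1.70 and 1.86 with the mixture in Cy3. Its foreground medians were 856 to 1426 in the mixture and 415 to 637 in the control, with no overlap. The mean was 1.92 ± 0.27 (SD, n = 6), a ratio of 3.79-fold (adjusted p = 2.81e-05).

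F55G11.3, annotated as a pseudogene, was at 1.42 ± 0.72 (SD, n = 6, adjusted p = 0.00391), and its ratios ran from 0.42 to 2.62. F55G11.2 was at 1.34 ± 0.44 (SD, n = 6, adjusted p = 0.00391), with ratios from 0.76 to 1.87. F55G11.7 was at 1.41 ± 0.66 (SD, n = 6, adjusted p = 0.00615) on the brightest of its 3 probes, while the other 2, both dim, were at -0.12 and 0.03. The genes of this family resemble each other, and whether a probe also bound the transcript of a neighbour was not tested, since the files used hold no probe sequences. In this stretch F55G11.8, outside the naming rule, was at 0.20 ± 0.27 (SD, n = 6, adjusted p = 0.277).

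Elsewhere in the run cld-1 (0.98 ± 0.48, control well above background on 1 array), C32H11.4 (0.58 ± 0.29), K10D11.3 (0.41 ± 0.25, well above background on 1 array) and K08D8.3 (0.35 ± 0.16) rose, and srlf-5 (-0.47 ± 0.16) fell (SD, n = 6, adjusted p from 0.0126 to 0.0318). K08D8.3 and K08D8.5 lie outside the naming rule and were named after their values were seen. K08D8.5, another effector of the p38 pathway, was at 0.19 ± 0.24 (SD, n = 6, adjusted p = 0.279).

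irg-5 also had neighbours that rose. On its clone, F35E12, these were F35E12.6 (0.88 ± 0.33), dct-17 (0.61 ± 0.48) and cld-9 (0.57 ± 0.22), each above 0 on all 6 arrays with adjusted p of 0.00799, 0.0162 and 0.00971. F35E12.6 had a ratio of 1.09 on Cy5 replicate 1, the array on which irg-5 was at -1.13. On the clone of irg-4, F08G5, no neighbour rose, and acl-13, named for a family of acyltransferases, fell (-0.59 ± 0.41, adjusted p = 0.0162). irg-2 neighbours included cyp-35A4, a cytochrome P450 gene, at 4.43 ± 0.49 (adjusted p = 1.90e-05), phat-3 at 0.89 ± 0.29 (adjusted p = 0.00252) and, named after its value was seen, phat-7 at 0.44 ± 0.16 (adjusted p = 0.0181). No neighbour of irg-1 or irg-3 on their clones was called.

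Counted together, the clones that hold CUB-like genes had 55 further genes, 43 of them measured. Of these 11 were called higher (25.6%, against 6.74% of all features) and 2 lower (4.65%, against 7.13%), with a median of 0.08. Genes sharing a clone with any of the 9 genes numbered 68, of which 55 were measured, 13 higher (23.6%) and 2 lower (3.64%), with a median of 0.04. These counts share most of their genes. They were taken by clone, and which of them encode CUB-like proteins was not determined here. The 11 became 5 without Cy3 replicate 3, 6 without Cy3 replicate 2, 7 without Cy5 replicate 2 and 13 without Cy5 replicate 3.

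Of 10 measured genes of the p38 MAPK pathway, which acts upstream of irg-4 and irg-5, 1 was called higher (10%, against 6.74% of all features) and none lower (against 7.13%), with a median of 0.28. It was vhp-1, a phosphatase that dampens MAP kinases, at 0.78 ± 0.30 (SD, n = 6, adjusted p = 0.00216) and above 0 on all 6 arrays. The scaffold tir-1, the kinases sek-1 and pmk-2 and the factor atf-7, the last named after its value was seen, had log2 ratios of 0.33, 0.26, 0.30 and 0.35 (adjusted p from 0.0760 to 0.0833), and pmk-1 itself 0.21 ± 0.48 (adjusted p = 0.254), also named after its value was seen.

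Among 9 measured bZIP and translation surveillance regulators 2 rose (22.2%, against 6.74% of all features) and none fell (against 7.13%), with a median of 0.20. These were zip-10 (0.77 ± 0.42, adjusted p = 0.0176) and cebp-2, a C/EBP factor that acts with ZIP-2 (0.40 ± 0.35, adjusted p = 0.0179). zip-2 was at 0.47 ± 0.37 (adjusted p = 0.0535), above 0 on 5 of 6 arrays, and its target irg-1 was below 0 on 5 of 6. On 1 of these, Cy5 replicate 2, irg-1 was only at -0.03, with its mixture channel not well above background. Of 12 insulin and DAF-16 regulators none rose and 1 fell (8.33%, against 7.13% of all features), with a median of -0.06. daf-16 was at 0.18 ± 0.09 (adjusted p = 0.153). Of 14 measured intestinal transcription factors and receptors none rose and 1 fell (7.14%, against the same 7.13%), with a median of 0.07. The 1 that fell was the endoderm GATA factor end-3 (-0.72 ± 0.50, adjusted p = 0.0220).

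**Figure D4:**
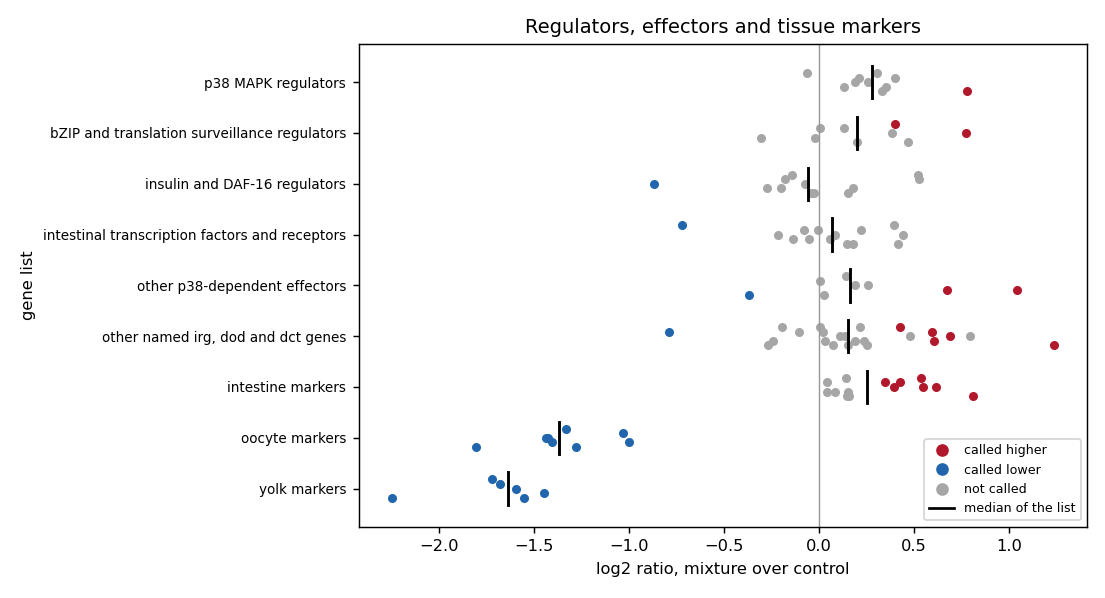
Log2 ratio of mixture over control (x axis) of the measured genes of 9 lists (y axis, points spread vertically for legibility); red, called higher, blue, called lower, grey, not called, black bars, list medians. Regulator lists have medians from -0.06 to 0.28, and oocyte and yolk markers of -1.37 and -1.64.

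Of 8 other effector genes known to depend on the p38 pathway 2 rose (25%) and 1 fell (12.5%), beside 6.74% and 7.13% of all features, with a median of 0.16. The lysozyme-like gene lys-2 was at 0.67 ± 0.27 (adjusted p = 0.00319), the ATPase gene catp-3 at 1.04 ± 0.46 (adjusted p = 0.01001) and the C-type lectin gene clec-85 at -0.37 ± 0.25 (adjusted p = 0.0328). Of the remaining genes named irg, dod or dct 23 of 25 were measured, 5 rose and 1 fell (21.7 and 4.35%, beside the same 6.74 and 7.13%), with a median of 0.15.

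The largest of these was dod-3 (1.24 ± 0.87), with ratios of 0.85, 0.77 and 0.26 in Cy5 and 1.25, 1.52 and 2.78 in Cy3, followed by dod-19 (0.69 ± 0.37), dct-17 and irg-8 (0.60 ± 0.22), another infection response gene and the direct neighbour of dod-19 by sequence name. dod-20 (0.42 ± 0.51, higher, control not well above background on any array) and dod-23 (-0.79 ± 0.52, lower) were named after their values were seen. The remaining irg gene, irg-7, was at 0.25 ± 0.33 (adjusted p = 0.202), also named after its value was seen.

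The pattern of irg-4 over the arrays was set against those of 9842 other named features that were well above background in both channels on at least 3 arrays. By the root mean square difference of the 6 log2 ratios the nearest were C29F7.2 (0.309), F49C12.7 (0.419), T16G1.6 (0.539), the cytochrome P450 gene cyp-29A2 (0.742) and the glutathione S-transferase gene gst-5 (0.778). Their mean log2 ratios were 3.00, 2.92, 2.86, 2.47 and 2.40, all called. Likeness here reflects the size of the ratio, and the 6 points share their libraries. irg-5 and the other irg and dod genes described were left out of the 9842 features, so irg-5 could not be among the nearest.

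**Figure D5:**
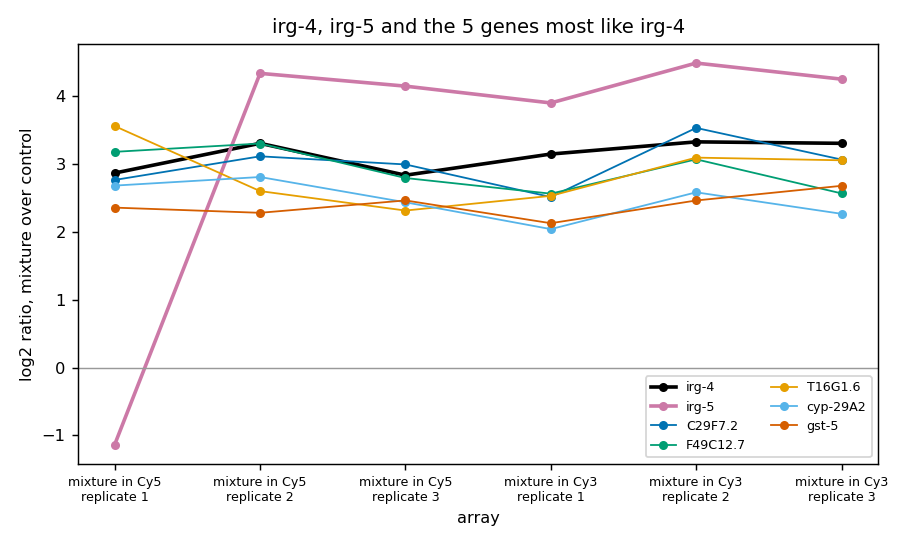
Log2 ratio of mixture over control (y axis) on each of the 6 arrays (x axis, no order) of irg-4, irg-5 and the 5 genes whose ratios were nearest to irg-4. The 5 genes stay between 2.04 and 3.56 on every array, while irg-5 is at -1.13 on Cy5 replicate 1 and above 3.90 on the others.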

How the data were processed

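Per the file headers, the deposited scanner tables give raw intensity (foreground and background, per spot and channel) and the percent of saturated pixels. The authors also deposited log2 ratios, normalized with loess and Aquantile per the study's methods (the submitters' processing notes name limma 3.2.3). This table was used as an alternative. Set against the scanner values it was mixture over control on all arrays, with slopes of 0.678 to 0.833 in size, so its scale stays partly unknown.

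Foreground medians were background corrected with normexp (offset 50), normalized by loess within and Aquantile between arrays (limma 3.58.1 in R 4.3.3), and turned to mixture over control. Where a gene had several probes the brightest was taken. A model with the mixture and a dye effect was fitted with lmFit and eBayes to all 18999 features, two-sided, with Benjamini-Hochberg adjustment over all of them. Every adjusted p of a gene is from this limma model unless an alternative (arrays left out, a block, other values or background) is named beside it. Intervals are 95% intervals of the same model. Errors are SDs over arrays. Well above background means a foreground median more than 2 background SDs above the background median. The number of arrays limits the precision, and p-values measure the spread between arrays, 2 of which carried the same mixture extract number. Control and empty spots were left out, and all flags were kept, since the sources used here do not say what they mean.

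The genes and lists were chosen with earlier results of these data known, so no list was tested as a set. Named are all 9 genes, up to 4 genes of the smallest p of each list (12 for the clones of CUB-like genes) and the 5 genes nearest to irg-4. The lists are the p38 MAPK, bZIP and translation surveillance, insulin and DAF-16 and intestinal regulators, other p38 effectors, other irg, dod and dct genes, genes by clone, and markers of intestine, oocyte, yolk, sperm, muscle, epidermis and neurons. Of 6 measured muscle markers 1 rose (myo-3, 0.85), of 6 epidermis markers 2 rose (rol-6 and dpy-7, both 0.70) and 1 fell (col-19, -1.40), and of 7 neuron markers none was called in limma, with 4 at an unadjusted p under 0.05. On simulated arrays of the same 18999 features, with 100 features each changed by a log2 ratio of 1 or 2, 84% and 99% were recovered. The simulated noise was independent between arrays, without slide series, shared extract or deviating spots, so these rates hold only for such noise. Alternatives changed background, normalization, probes, blocks, flags and arrays. The gene called lower among the insulin and DAF-16 regulators is not reported here.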

Additional observations from a re-analysis of the deposited data

Results flagged for a closer look

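The irg-5 ratio of Cy5 replicate 1 was far from the others. It was -1.13, and the next lowest of the 6 log2 ratios was 3.90, a gap of 0.895 of the whole range. The ratios of 8 genes were looked at in this way, and chance flags about 1 in 20 groups. Without this array the irg-5 ratio was 4.23 on the log2 scale (limma, adjusted p = 5.93e-05). The spot was uneven in both channels of that array, and the part of this in the ratio was not tested.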

How the results depend on the processing

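irg-4 kept its call under 23 alternatives, from 2.76 to 3.27. irg-5 lost its call with plain background subtraction (3.37) and in the methods' linear model on channels without pairing (3.33). The study removed outlying values before its model, a step left out here. Whether that step would remove the irg-5 value of Cy5 replicate 1 was not tested. irg-5 ranged from 2.86 to 4.23 when arrays were left out. Over all 23 alternatives the lowest values of irg-5 were 1.62 on the shared scan day alone and 1.93 in the authors' value table. The shared scan day held a single array with the mixture in Cy5, and the value table a single such value of irg-5, both Cy5 replicate 1. The dye term fits these exactly, so calls there rest on the spread of the Cy3 arrays alone. irg-1 lost its call with no background correction (-0.58), plain subtraction (-1.09), print-tip loess (-0.69) and the shared mixture extract averaged (-0.80). It also lost it with scan day as a block and in the methods' model (both -0.74). Without single arrays it ranged from -0.89 to -0.48. The replicate numbers did not pair the arrays (correlations of deviations from -0.233 to -0.00647, and no array nearest to its own number). With a replicate block irg-1 stayed at -0.74 and lost its call (adjusted p = 0.0749), which left 0 genes called lower and 2 higher, and over all features the block left 531 higher and 419 lower. Without single arrays 1 to 4 genes were called higher (4 without Cy5 replicate 3) and 0 to 1 lower. Plain subtraction and the methods' model called 1 higher and 0 lower, and foreground means, the authors' value table, the slide series as a block and the shared scan day alone called 3 higher. Calls gained included dod-24 (foreground means, value table), dod-22 (series block, adjusted p = 0.0260, and shared scan day), dod-17 (median centring, 0.00807, and series block, 0.0150) and irg-3 (median centring, 0.0129). No background correction, print-tip loess, the averaged extract and scan day as a block called 0 lower, the slide series as a block 2, and median centring and the later slide series alone 3. Ratios changed sign for irg-2 in the authors' value table (0.046) and on the shared scan day (0.081), for dod-22 in the later series (-0.20) and for dod-24 with median centring (-0.047). None of these was called.

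Of all calls 48.6% were higher, with median centring 16.5% (679 higher, 3439 lower) and with plain subtraction 79.1% (159 higher, 42 lower). With median centring the brightest of 3 equal parts of the features had a median of -0.31, so ratios near 0 have no firm sign. Over all features, leaving out single arrays gave 357 to 2173 higher and 178 to 2436 lower. The methods' model called 293 higher and 290 lower at an unadjusted p under 0.01, and 50 and 6 after Benjamini-Hochberg adjustment. With only spots of the most frequent flag none of the 8 genes could be fitted. With only spots of flag 3, chosen after seeing the data, 6 could, 2 higher and 1 lower.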

Other observations

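In the authors' value table irg-4 had log2 ratios of 2.75 and 2.43 with the mixture in Cy5 and of 2.74, 2.98 and 3.10 with the mixture in Cy3, and no value on Cy5 replicate 1. The table held 4 values of irg-5: -0.16 on Cy5 replicate 1 and 3.72, 4.27 and 4.10 on the Cy3 arrays. The ratios of irg-5 on Cy5 replicates 2 and 3, which were 4.34 and 4.15 from the scanner values, were missing there. The irg-4 spot was uneven on all 6 arrays, with a mean of pixels 1.47 to 2.54 times their median in the mixture channel and 1.6 to 3.15 times in the control channel. From foreground means in place of medians the irg-4 ratio was 2.89 (limma, adjusted p = 3.32e-06).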
